A study of Mus musculus with 36 samples.

Results

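The genes described here are the 10, of 56748 in the expression table, whose symbol was Fasn, Acly, Acaca, Acacb, Scd1, Elovl6, Me1, Thrsp, Srebf1 or Mlxipl, the enzymes and regulators of de novo lipogenesis. The study removed Mlkl, the pore-forming effector of necroptosis, from mature adipocytes, with a Cre driven by the adiponectin promoter acting on floxed Mlkl (MlklAdi-KO). WT mice were littermates that carried the floxed alleles without Cre, so all mice carried floxed Mlkl, and other cells of the fat pad kept the gene in MlklAdi-KO mice. Male C57BL/6J mice received normal chow diet (NCD) or high-fat diet (HFD) for 16 weeks from 16 weeks of age, and polyadenylated RNA was sequenced from visceral white adipose tissue (visWAT, the epididymal depot) and liver of the same animals. This gave 8 groups and 36 libraries from 18 mice: 4 NCD WT, 4 NCD MlklAdi-KO, 5 HFD WT and 5 HFD MlklAdi-KO mice, each with a visWAT and a liver library of its own. Libraries held 20875463 to 30322171 reads assigned to genes.

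De novo lipogenesis makes fatty acids from carbohydrate. Citrate leaves the mitochondrion and is cut to acetyl-CoA by ATP-citrate lyase (Acly), acetyl-CoA carboxylase turns acetyl-CoA into malonyl-CoA, and fatty acid synthase (Fasn) joins malonyl-CoA units into palmitate with NADPH that malic enzyme (Me1) helps to supply. Palmitate is then lengthened by Elovl6 and desaturated by Scd1. Transcription of these genes follows insulin through SREBP-1c, made from Srebf1, and glucose through ChREBP, made from Mlxipl, and in rodents it takes place in both liver and adipose tissue.

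In the GRCm39 coordinates of the deposited table, 4 of the 10 genes lay on chromosome 11: Srebf1 at 60089915-60113407 (minus strand), Acaca at 84020498-84292477 (plus), Acly at 100367179-100418826 (minus) and Fasn at 120696672-120715373 (minus). Acacb (114284596-114388822) and Mlxipl (135118744-135167236) lay on the plus strand of chromosome 5. Elovl6 lay on chromosome 3 at 129326004-129432144 (plus), Thrsp on chromosome 7 at 97062145-97066937 (minus), Me1 on chromosome 9 at 86463424-86578006 (minus) and Scd1 on chromosome 19 at 44382894-44396318 (minus).

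RefSeq promoter sequences (build GRCm38.p6, not the GRCm39 of the expression table) were at hand for 9 of the 10 genes, with 13 start sites among them. The 250 bases before each start were searched on both strands for 3 sequences: the E-box CACGTG, which USF factors and, as part of its element, ChREBP bind; the SREBP element TCACNCCAC; and the CCAAT box, the site of NF-Y, a partner of SREBP-1c. CCAAT stood in 7 of the 13 member windows, of 6 genes, and in 33.8% of all 32851 windows. The E-box stood in 1 member window and in 6.02% of all windows, and the SREBP element in 1 member window and in 1.05% of all. The 150 bases before the start are shown for Fasn, with the most matches in 1 window. They are shown for Thrsp, whose diet response differed in direction between the tissues, as did that of Srebf1, which is not shown. Both starts of Mlxipl, the one gene with an E-box and an SREBP element, are shown too. Capitals mark the letters of the 3 searched sequences, read on either strand, where ATTGG is CCAAT on the other strand.
Fasn, chr11:120824548-120824697, minus strand: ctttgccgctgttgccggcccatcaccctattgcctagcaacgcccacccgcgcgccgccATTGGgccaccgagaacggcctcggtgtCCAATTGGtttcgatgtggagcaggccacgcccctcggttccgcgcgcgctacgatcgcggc
Thrsp, chr7:97417551-97417700, minus strand: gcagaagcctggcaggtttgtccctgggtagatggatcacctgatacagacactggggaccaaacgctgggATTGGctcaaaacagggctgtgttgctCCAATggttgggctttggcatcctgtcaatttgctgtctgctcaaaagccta
Mlxipl, first start, chr5:135089740-135089889, plus strand: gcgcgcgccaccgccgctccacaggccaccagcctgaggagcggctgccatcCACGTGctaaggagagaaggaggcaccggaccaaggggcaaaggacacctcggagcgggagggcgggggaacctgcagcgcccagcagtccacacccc
Mlxipl, second start, chr5:135106741-135106890, plus strand: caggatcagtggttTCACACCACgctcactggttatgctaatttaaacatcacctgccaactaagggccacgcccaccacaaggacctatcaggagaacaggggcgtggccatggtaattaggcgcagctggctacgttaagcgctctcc
In Fasn the CCAAT letters began 90, 62 and 59 bases before the start, the last pair overlapping on opposite strands, and in Thrsp 79 and 52 bases before it. In Mlxipl the E-box began 98 bases before the first start and the SREBP element 136 bases before the second. These are letter matches only, and no binding was measured.

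Mlkl was checked first. In visWAT on HFD it was 5.29 ± 0.652 FPKM in WT and 2.53 ± 0.172 in MlklAdi-KO mice, and the groups did not overlap (lowest WT 4.58, highest MlklAdi-KO 2.72). On NCD, 3 WT visWAT libraries held 3.91 to 5.11 FPKM and the MlklAdi-KO libraries 1.96 to 2.49, but the library labelled WT NCD mouse 182 held 2.29, inside the MlklAdi-KO range. In that library 8 of the 10 lipogenesis genes stood from 3.29 to 36.2 times the median of the other 3 WT NCD visWAT libraries, and the 10 genes together took 16.5% of its reads. Genes outside the 10 were raised in it too, and the share of all genes raised as far is not given here. The visWAT library of WT NCD mouse 183 held a summed 292587 FPKM of seminal vesicle transcripts among 564718 FPKM in all. The other genes of that library are therefore lowered on the TPM scale, which gives every library the same total. The visWAT library of mouse 182 also held the highest level of 4 brown fat transcripts among all 18: Ucp1 at 6.23 FPKM (0 to 0.303 in the other 17), Cidea at 72.5 (1.75 to 14.9), Cox8b at 268 (11.9 to 63.6) and Elovl3 at 16.7 (0.0142 to 0.898). The list of 8 brown fat and mammary markers summed to 375 FPKM in it and to 18.3 to 165 in the others, with the milk protein genes Wap and Csn2 at 0 in every visWAT library. The part of these markers in its lipogenesis values was not tested. The WT NCD visWAT values of the 10 genes are given by mouse for these reasons, and the WT diet differences in visWAT with and without mouse 182. Liver Mlkl overlapped between genotypes, from 2.18 to 4.19 FPKM in WT and 1.62 to 3.94 in MlklAdi-KO mice on NCD. Summed markers followed the tissue labels: 12 adipocyte markers summed to 6347 FPKM or more in visWAT and 1868 or less in liver, and 11 hepatocyte markers to 54476 or more in liver and 1021 or less in visWAT.

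**Figure D1:**
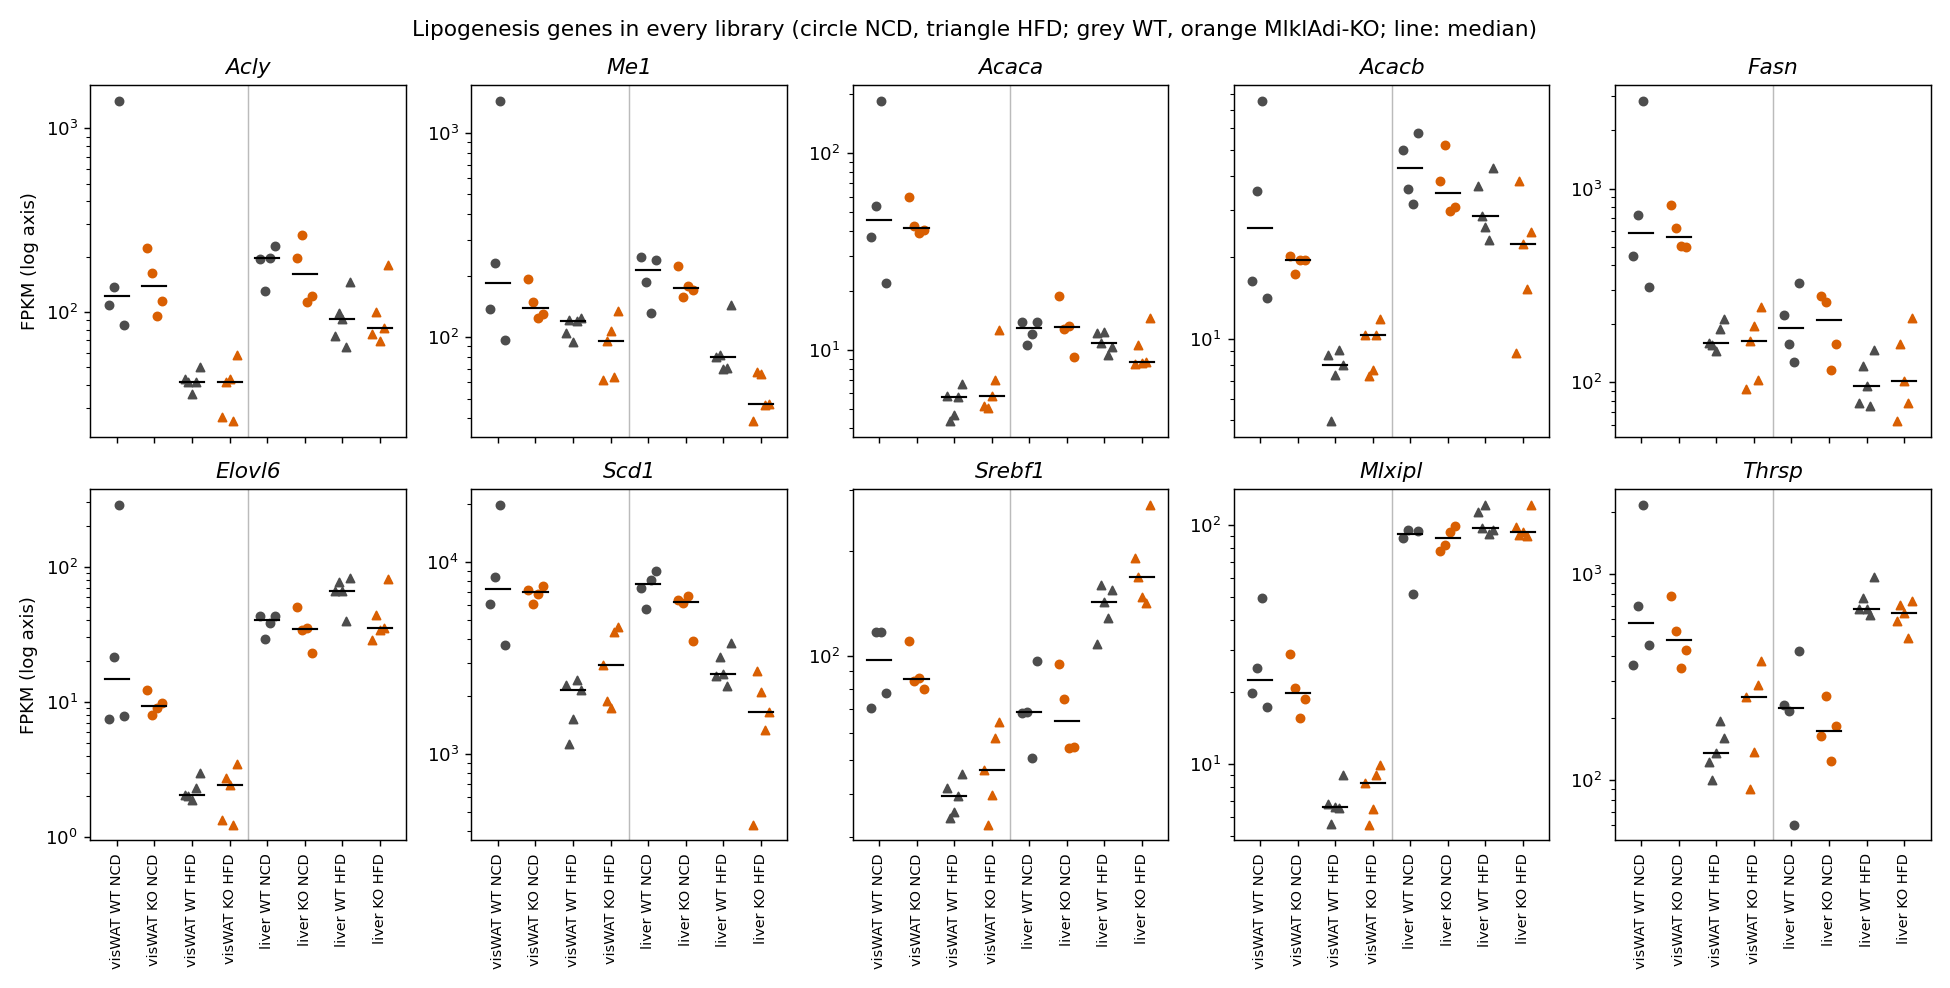
FPKM of each of the 10 genes (log axis) in every library, in 8 groups (visWAT and liver, NCD and HFD, WT and MlklAdi-KO); each point is 1 mouse (circles NCD, triangles HFD, grey WT, orange MlklAdi-KO) and each line the group median. HFD points lie below NCD points in visWAT for most genes, Thrsp and Srebf1 lie higher on HFD in liver, and the library labelled WT NCD mouse 182 stands far above its group for Elovl6, Acly and Me1.

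High-fat feeding went with lower expression of the lipogenesis genes in visWAT. In WT visWAT 9 of the 10 genes fell on HFD (all but Me1; median difference of the 10 genes -2.10 on the log2 scale, against -0.01 for all genes tested), where 37.8% of all 14161 genes were called in either direction. The same 9 fell without mouse 182, and without mice 182 and 183 all 10 did, from -2.84 (Acaca) to -0.65 (Me1). In MlklAdi-KO visWAT all 10 fell (median -1.30 against 0.01), where 43.7% of genes were called. In WT liver 7 of 10 were called, 4 lower (Acly, Me1, Fasn, Scd1) and 3 higher (Elovl6, Srebf1, Thrsp), where 25.3% of genes were called. In MlklAdi-KO liver 4 were called, Me1 and Scd1 lower and Srebf1 and Thrsp higher, where 22.2% of genes were called. A call is a limma test on log2(FPKM + 1) with a Benjamini-Hochberg adjusted p under 0.05 over all genes tested, and every log2 difference below is on that scale. The 10 genes took a median of 6.12% of reads in WT and 5.85% in MlklAdi-KO visWAT on NCD, and 1.99% and 2.23% on HFD. In liver the medians were 3.41% and 2.78% on NCD and 1.43% and 1.18% on HFD, and Scd1 alone made up most of each.

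The fall in visWAT came with a change in markers of the cells in the tissue. The 12 adipocyte markers summed to 14293 to 26954 FPKM in WT visWAT on NCD and 6347 to 8405 on HFD, and to 21148 to 26049 and 7319 to 16994 in MlklAdi-KO visWAT. Of these 12 markers, 7 fell and 1 rose in WT, where 37.8% of all genes were called. In MlklAdi-KO visWAT 4 fell and 2 rose, where 43.7% were called. The 10 macrophage markers summed to 733 to 848 FPKM on NCD and 2285 to 3039 on HFD in WT, and to 790 to 977 and 1154 to 2794 in MlklAdi-KO visWAT. These 10 include Lpl and Cd9, which are not particular to macrophages, so the sum does not measure macrophage content alone. In bulk tissue, fewer cells of a type and less RNA per cell cannot be told apart, and the part of the marker changes in the fall of the lipogenesis genes was not tested.

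Acly and Me1 supply acetyl-CoA and NADPH. Acly in WT visWAT on NCD was 109 FPKM in mouse 165, 136 in mouse 180, 85.01 in mouse 183 and 1407 in the library labelled WT NCD mouse 182. On HFD the 5 WT mice held 35.7 to 50.4 FPKM, all below the NCD mice, and the log2 difference was -2.26 ± 0.72 (SE; limma adjusted p = 0.0335). Without mouse 182 the difference was -1.33 (limma adjusted p = 0.000291), whereas leaving out mouse 180 or any 1 of the 5 HFD mice gave limma adjusted p from 0.0511 to 0.0704 at differences from -2.45 to -2.20. In MlklAdi-KO visWAT Acly was 223, 163, 95.2 and 115 FPKM on NCD and 26.7, 41.5, 43.2, 25.6 and 58.0 on HFD. The groups did not overlap, and Acly fell by 1.89 on the log2 scale (limma adjusted p = 0.00142).

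In WT liver Acly fell by 1.004 on the log2 scale, from 188 ± 41.6 FPKM (SD, n = 4) on NCD to 94.9 ± 31.5 (n = 5) on HFD (limma adjusted p = 0.0143) with overlapping groups, since HFD mouse 164 held 146 FPKM and NCD mouse 180 held 130.02. In MlklAdi-KO liver Acly was 174 ± 70.3 and 101 ± 46.0 FPKM and the difference of -0.78 did not pass (limma adjusted p = 0.111, and 0.0271 without mouse 157, which held 181 FPKM on HFD).

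Me1 in WT visWAT was 137, 231 and 96.6 FPKM in NCD mice 165, 180 and 183 and 1436 in the mouse 182 library labelled WT NCD, and 95.2 to 124 on HFD. The diet groups overlapped and the log2 difference of -1.19 did not pass (limma adjusted p = 0.19). It was -0.36 without mouse 182 (limma adjusted p = 0.27), and -0.65 without both mice 182 and 183 (limma adjusted p = 0.0258). In MlklAdi-KO visWAT Me1 fell from 149 ± 31.0 to 92.6 ± 30.8 FPKM (log2 -0.72, limma adjusted p = 0.0384), with overlapping groups, and leaving out in turn any mouse other than 153 and 157 took the limma adjusted p above 0.05 (0.0522 to 0.107).

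In liver Me1 fell in both genotypes. MlklAdi-KO mice held 222, 158, 179 and 171 FPKM on NCD and 39.0, 67.4, 65.7, 46.7 and 46.9 on HFD, with no overlap (log2 -1.78 ± 0.17, limma adjusted p = 0.000184). WT mice held 248, 186, 132 and 239 FPKM on NCD and 79.8, 82.0, 69.9, 70.6 and 144 on HFD (log2 -1.17 ± 0.25, limma adjusted p = 0.00832). The WT groups overlapped by 1 mouse on each diet, HFD mouse 164 and NCD mouse 182.

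Acaca and Acacb encode the acetyl-CoA carboxylases, the cytosolic form that feeds Fasn and the mitochondrial-membrane form whose malonyl-CoA restrains fatty acid oxidation. Acaca had the largest fall of the 10 genes in visWAT of both genotypes on the log2(FPKM + 1) scale, which understates the change of the lower Elovl6. WT visWAT held 37.3, 53.9 and 21.8 FPKM in NCD mice 165, 180 and 183, 184 in the mouse 182 library labelled WT NCD, and 5.85, 4.36, 4.65, 5.73 and 6.67 on HFD. The lowest NCD library was above every HFD library, and the log2 difference was -3.09 ± 0.50 (limma adjusted p = 0.00111, and -2.50 without mouse 182). MlklAdi-KO visWAT held 59.5, 42.3, 39.3 and 40.8 FPKM on NCD and 5.19, 5.08, 5.82, 7.003 and 12.5 on HFD (log2 -2.57 ± 0.24, limma adjusted p = 0.00021). Liver Acaca lay between 8.46 and 18.7 FPKM in all 18 mice. Its diet differences there were -0.18 in WT (95% interval -0.40 to 0.05, limma adjusted p = 0.233) and -0.36 in MlklAdi-KO mice (-0.81 to 0.08, limma adjusted p = 0.227). The change of Acaca with diet differed between the tissues, by -2.92 ± 0.54 in WT and -2.20 ± 0.33 in MlklAdi-KO mice (visWAT minus liver, log2, limma adjusted p = 0.000446 and 9.19e-05).

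Acacb in visWAT was 16.3, 35.2 and 14.1 FPKM in NCD WT mice 165, 180 and 183, 75.6 in the mouse 182 library labelled WT NCD, and 4.996 to 9.11 on HFD, a log2 difference of -1.78 (limma adjusted p = 0.0105, and -1.32 without mouse 182). In MlklAdi-KO visWAT it fell from 17.3 to 20.3 FPKM on NCD to 7.27 to 11.8 on HFD (log2 -0.97 ± 0.13, limma adjusted p = 0.000791). Neither genotype's diet groups overlapped in visWAT. In liver they overlapped, and neither difference passed: -0.46 in WT (95% interval -0.96 to 0.03, limma adjusted p = 0.16) and -0.86 in MlklAdi-KO mice (-1.65 to -0.08, limma adjusted p = 0.107, and 0.0323 without mouse 152). The lowest liver library, MlklAdi-KO HFD mouse 151, held 8.90 FPKM of Acacb and the highest of its group 38.4.

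Fasn makes palmitate. WT visWAT held 446, 725 and 311 FPKM in NCD mice 165, 180 and 183, 2839 in the mouse 182 library labelled WT NCD, and 159, 155, 145, 187 and 210.4 on HFD. The groups did not overlap (log2 -2.10 ± 0.55, limma adjusted p = 0.0143, and -1.45 without mouse 182). MlklAdi-KO visWAT held 817, 624, 505 and 499 FPKM on NCD and 92.0, 163, 195, 102 and 243 on HFD (log2 -2.002 ± 0.30, limma adjusted p = 0.00109). Fasn is the gene of the CCAAT-rich promoter shown above. In WT liver Fasn was 207 ± 87.1 FPKM on NCD and 103 ± 30.4 on HFD (log2 -0.96, limma adjusted p = 0.0378) with overlapping groups, and leaving out mouse 165 or 183 on NCD or 154, 155, 161 or 162 on HFD took the limma adjusted p above 0.05 (0.0501 to 0.0889). In MlklAdi-KO liver it was 202 ± 78.6 and 122 ± 62.1 FPKM (log2 -0.77, limma adjusted p = 0.179). The difference between the tissues in the change of Fasn did not pass in either genotype in the unpaired fit (log2 -1.14 and -1.23, limma adjusted p = 0.18 and 0.0686; in WT 0.0277 without mouse 183). With the mouse as a block, since both tissues came from the same mice, the MlklAdi-KO difference passed (limma adjusted p = 0.00206), as did that of Acly (-1.11, 0.0690 without and 0.0048 with the block).

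**Figure D2:**
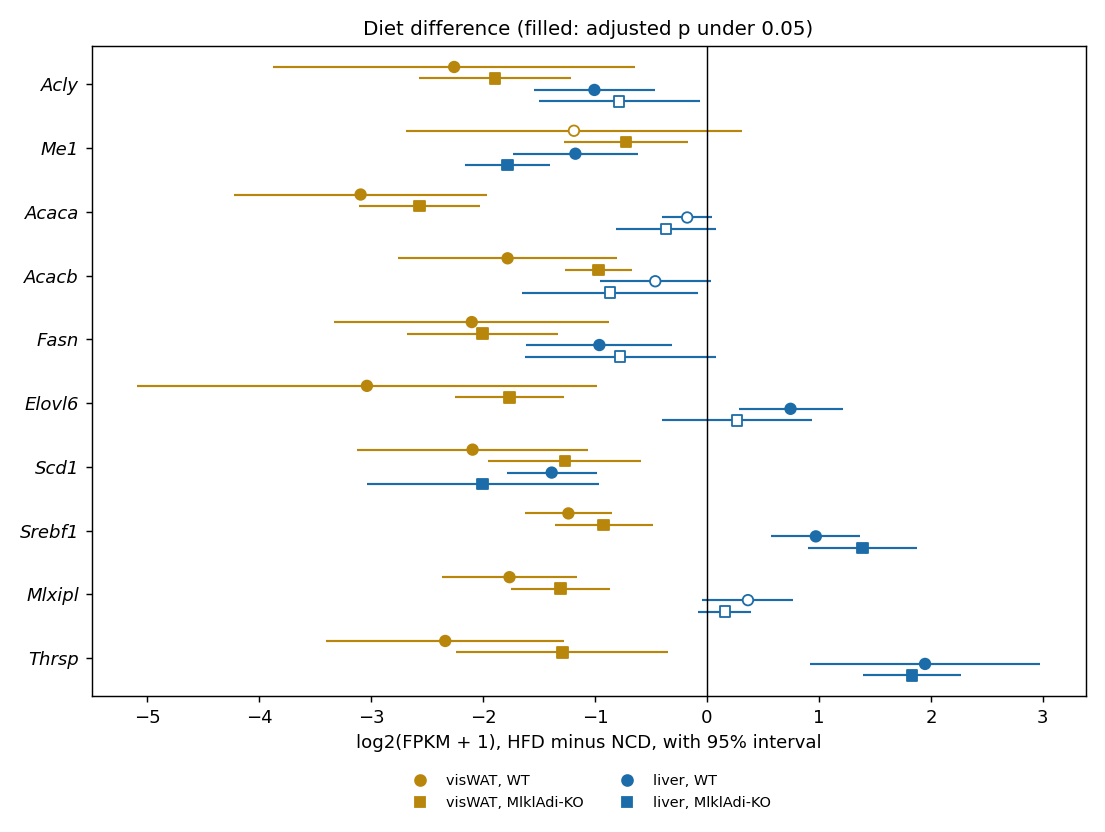
Log2 difference HFD minus NCD on the log2(FPKM + 1) scale for each gene in visWAT and liver, WT and MlklAdi-KO; points are limma estimates and bars their 95% intervals. All visWAT estimates lie below 0, from -3.09 (Acaca, WT) to -0.72 (Me1, MlklAdi-KO), whereas Thrsp and Srebf1 lie above 0 in liver.

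Elovl6 and Scd1 finish the product. Elovl6, which extends palmitate to stearate, fell in visWAT and was higher on HFD in WT liver. WT visWAT held 7.42, 21.5 and 7.89 FPKM in NCD mice 165, 180 and 183, 286 in the mouse 182 library labelled WT NCD, and 1.87 to 2.97 on HFD (log2 -3.04 ± 0.91, limma adjusted p = 0.027). The difference was -1.89 without mouse 182, and leaving out mouse 180 or HFD mouse 154, 155, 161 or 162 took the limma adjusted p to 0.0516 to 0.0571. MlklAdi-KO visWAT held 7.93 to 12.2 FPKM on NCD and 1.24 to 3.49 on HFD (log2 -1.76, limma adjusted p = 0.000493). No visWAT diet groups overlapped for Elovl6. WT liver held 42.9, 29.2, 38.1 and 42.8 FPKM on NCD and 66.1, 76.9, 66.0, 39.4 and 81.8 on HFD, so that only HFD mouse 162 lay inside the NCD range (log2 0.75 ± 0.21, limma adjusted p = 0.0267, and 0.0554 to 0.0709 without NCD mouse 180 or HFD mouse 154, 155, 161 or 164). MlklAdi-KO liver held 35.5 ± 11.2 and 44.5 ± 21.0 FPKM (log2 0.27, limma adjusted p = 0.567), its HFD mean raised by mouse 157 at 80.8. The change with diet differed between the tissues by -3.78 in WT and -2.03 in MlklAdi-KO mice (log2, limma adjusted p = 0.00628 and 0.000757).

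Scd1, the stearoyl-CoA desaturase, was the most abundant of the 10 genes in every group, and fell in both tissues. WT visWAT held 6047, 8395 and 3692 FPKM in NCD mice 165, 180 and 183, 19897 in the mouse 182 library labelled WT NCD, and 1126 to 2444 on HFD (log2 -2.09, limma adjusted p = 0.00615, and -1.64 without mouse 182). MlklAdi-KO visWAT held 6089 to 7551 FPKM on NCD and 1752 to 4581 on HFD (log2 -1.27, limma adjusted p = 0.00897). Neither genotype's groups overlapped (exact two-sided permutation p = 0.00794 and 0.0238), but with no filter on low genes the limma adjusted p was 0.193 and 0.278. WT liver held 5723 to 9025 FPKM on NCD and 2272 to 3788 on HFD (log2 -1.39 ± 0.18, limma adjusted p = 0.000679), and MlklAdi-KO liver 6332, 6104, 6684 and 3886 on NCD and 431, 2706, 2101, 1336 and 1667 on HFD (log2 -2.002 ± 0.46, limma adjusted p = 0.0133). The liver groups did not overlap either. The change of Scd1 was not called different between the tissues, at -0.71 in WT (limma adjusted p = 0.302) and 0.73 in MlklAdi-KO mice (limma adjusted p = 0.342).

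Srebf1 encodes the SREBP-1 factors, SREBP-1c among them, and moved in opposite directions in the tissues. WT visWAT held 70.5, 117 and 78.1 FPKM in NCD mice 165, 180 and 183, 117 in the mouse 182 library labelled WT NCD, and 33.96 to 45.5 on HFD, a log2 difference of -1.24 ± 0.17 (limma adjusted p = 0.000457, and -1.13 without mouse 182). On the TPM scale it was -0.77 (limma adjusted p = 0.081), where the median of all genes in WT visWAT moved to 0.42. MlklAdi-KO visWAT held 79.9 to 110.2 FPKM on NCD and 32.6 to 64.3 on HFD (log2 -0.92, limma adjusted p = 0.00512). WT liver held 68.5, 68.7, 50.8 and 96.6 FPKM on NCD and 108, 159, 143, 128 and 154 on HFD, a log2 difference of 0.97 ± 0.18 (limma adjusted p = 0.0041). Every HFD liver lay above every NCD liver of the same genotype, also in MlklAdi-KO mice, at 54.3 to 94.5 FPKM on NCD and 142 to 272 on HFD (log2 1.39 ± 0.22, limma adjusted p = 0.00214). The difference between the tissues was -2.21 in WT and -2.31 in MlklAdi-KO mice (limma adjusted p = 4.66e-06 and 3.59e-05). The values are for the whole gene and do not separate its isoforms.

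Mlxipl, the gene of ChREBP, fell in visWAT and its change in liver was not called. WT visWAT held 19.8, 25.1 and 17.3 FPKM in NCD mice 165, 180 and 183, 49.4 in the mouse 182 library labelled WT NCD, and 5.63 to 8.97 on HFD (log2 -1.76 ± 0.27, limma adjusted p = 0.000788, and -1.45 without mouse 182). MlklAdi-KO visWAT held 15.6 to 29.0 FPKM on NCD and 5.58 to 9.89 on HFD (log2 -1.31, limma adjusted p = 0.00111). The visWAT groups did not overlap. In liver, WT held 88.9, 95.1 and 94.7 FPKM in NCD mice 165, 180 and 183, 51.5 in NCD mouse 182, and 92.1 to 121 on HFD (log2 0.37, 95% interval -0.04 to 0.77, limma adjusted p = 0.172). MlklAdi-KO liver held 78.1 to 99.6 and 90.01 to 122 FPKM (log2 0.16, -0.08 to 0.40, limma adjusted p = 0.316). The difference between the tissues was -2.13 in WT and -1.47 in MlklAdi-KO mice (limma adjusted p = 0.000125 and 0.000152).

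Thrsp, also called Spot 14, is a small protein of lipogenic tissues that thyroid hormone and carbohydrate induce. It had the largest difference between the tissues in the response to diet, -4.28 ± 0.70 in WT and -3.12 ± 0.49 in MlklAdi-KO mice (log2, limma adjusted p = 0.000136 and 0.000132). In WT it was -3.21 without mouse 182. WT visWAT held 362, 698 and 451 FPKM in NCD mice 165, 180 and 183, 2157 in the mouse 182 library labelled WT NCD, and 122, 99.6, 136, 193 and 160.1 on HFD (log2 -2.34 ± 0.47, limma adjusted p = 0.00393, and -1.80 without mouse 182). MlklAdi-KO visWAT held 775, 526, 349 and 427 FPKM on NCD and 251, 90.3, 136, 289 and 379 on HFD. Here the groups overlapped by mouse 157 (log2 -1.29 ± 0.42, limma adjusted p = 0.0328), and leaving out NCD mouse 166, 179 or 199 or HFD mouse 153 took the limma adjusted p above 0.05 (0.0559 to 0.0921). WT liver held 229.7, 215 and 421 FPKM in NCD mice 165, 180 and 183, 60.6 in NCD mouse 182, and 673, 761, 677, 628 and 961 on HFD, a log2 difference of 1.95 ± 0.46 (limma adjusted p = 0.0134). MlklAdi-KO liver held 163, 256, 124 and 182 FPKM on NCD and 592, 704, 643, 489 and 737 on HFD (log2 1.83 ± 0.19, limma adjusted p = 0.000286). The liver groups did not overlap in either genotype and stood in the opposite order to visWAT, which is why the Thrsp promoter is shown above. Srebf1 had the same opposite order, and its starts, not shown, held 1, 0 and 1 matches of the searched sequences. A link between these matches and the direction was not tested.

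For the change with diet between the tissues, the fit without a block called 5 genes in WT (Acaca, Elovl6, Srebf1, Mlxipl, Thrsp), where 40.0% of all genes were called. It called 6 in MlklAdi-KO mice (the same 5 and Me1), where 40.6% were. With the mouse as a block these calls stayed, and Acly (limma adjusted p = 0.0048) and Fasn (0.00206) passed too in MlklAdi-KO mice. The share of all genes called with the block is not given here. Without mouse 182 the 5 WT differences were -2.31 (Acaca), -2.64 (Elovl6), -1.95 (Srebf1), -1.61 (Mlxipl) and -3.21 (Thrsp), and without mice 182 and 183 they were -2.71, -2.94, -2.19, -1.74 and -3.56, each called. Me1 was the exception in sign: in MlklAdi-KO mice it fell less in visWAT than in liver, a difference of 1.06 (log2, limma adjusted p = 0.013). In WT the value for Me1 was -0.01 with all mice and 0.999 without mouse 182 (limma adjusted p = 0.0362). Clock gene transcripts moved with diet in liver too: of 12 listed, 11 were tested, and 6 were higher and 3 lower on HFD in both genotypes, where 25.3% (WT) and 22.2% (MlklAdi-KO) of all genes were called. In visWAT 0 were higher and 2 lower of 12 in WT, and 1 higher and 2 lower of 11 in MlklAdi-KO mice, where 37.8% and 43.7% were. Their part in the liver values was not tested.

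**Figure D3:**
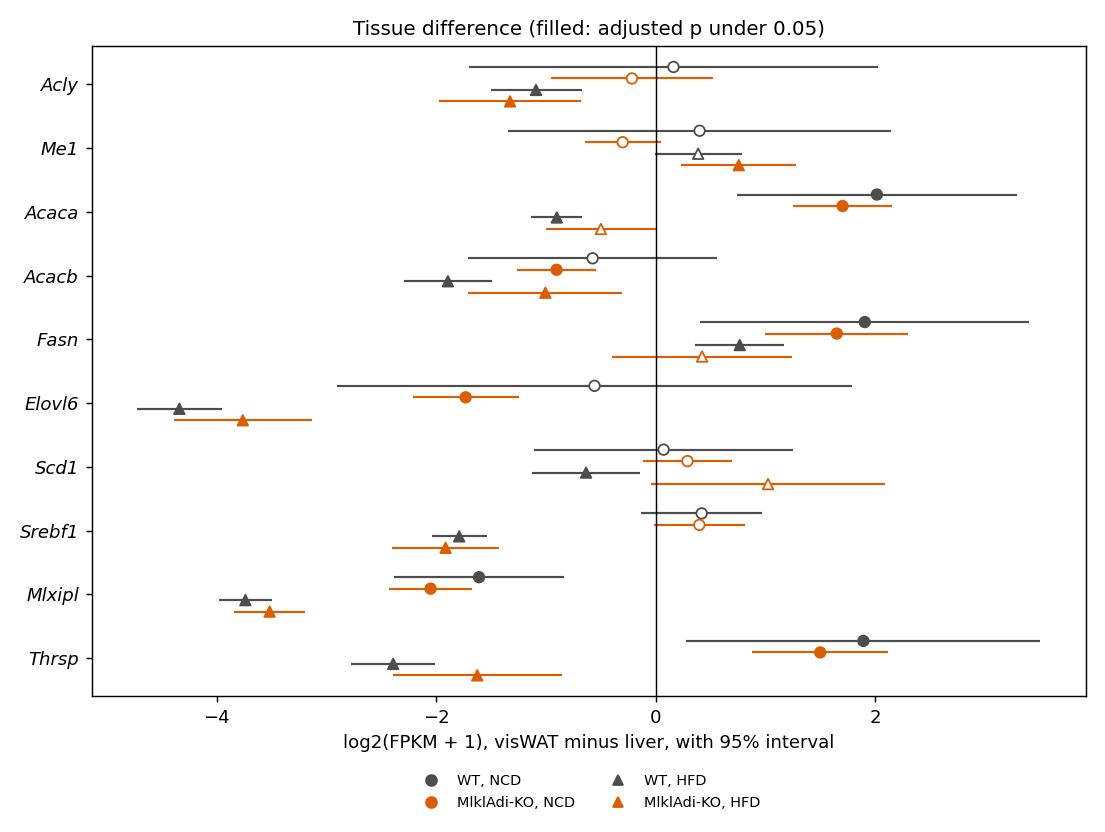
Log2 difference visWAT minus liver on the log2(FPKM + 1) scale for each gene in the 4 sets of mice; points are limma estimates and bars their 95% intervals. Acaca, Fasn and Thrsp lie above 0 on NCD, and Elovl6 and Mlxipl lie furthest below 0 on HFD, at -4.34 and -3.74 in WT.

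The tissues were also compared directly. On NCD, with all mice and no block, the 10 genes were called between the tissues less often than all genes were. In MlklAdi-KO mice on NCD, Acaca (45.5 ± 9.44 FPKM in visWAT, 13.5 ± 3.94 in liver), Fasn (611 ± 149 and 202 ± 78.6) and Thrsp (519 ± 185 and 181 ± 55.3) were higher in visWAT, and Acacb, Elovl6 and Mlxipl were higher in liver. These 6 were called, where 77.9% of all genes were. None of the 6 overlapped between the tissues, and the share of all genes without overlap is not given here. With the mouse as a block Srebf1 (log2 0.40, limma adjusted p = 0.0118) and Me1 (-0.30, 0.0233) passed too. In WT on NCD 4 were called, where 65.5% of genes were: Acaca (log2 2.02), Fasn (1.91) and Thrsp (1.89) higher in visWAT and Mlxipl (-1.61) lower. Without mouse 182 these were 1.41, 1.05, 0.81 and -2.13, Thrsp no longer passed (limma adjusted p = 0.0765), and Acly (-0.73), Elovl6 (-1.70) and Acacb (-1.18) passed as lower in visWAT. With the mouse as a block Fasn and Thrsp no longer passed in WT (limma adjusted p = 0.0735 and 0.109). Leaving out mouse 165 or mouse 180 instead left 2 and 1 called, Acaca being lost without mouse 180 (limma adjusted p = 0.0659).

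On HFD most genes were lower in visWAT than in liver. In WT 9 of 10 were called, where 84.6% of genes were, and in MlklAdi-KO mice 7 of 10, where 80.3% were. Both counts were near the share of all genes. Mlxipl was 6.91 ± 1.23 FPKM in WT visWAT and 104 ± 12.7 in liver (15.1-fold by the means), and Elovl6 2.24 ± 0.437 and 66.0 ± 16.4 (29.5-fold). Srebf1 (log2 -1.79 in WT, -1.91 in MlklAdi-KO mice), Thrsp (-2.39 and -1.63), Acacb (-1.89 and -1.005) and Acly (-1.09 and -1.33) were also lower in visWAT in both genotypes. Scd1 in WT (-0.63) was lost without mouse 155 or 161, and Acacb in MlklAdi-KO mice without mouse 152 or 153 (limma adjusted p 0.0519 to 0.0724). In the FPKM fit without a block, Fasn was the only one of the 10 called higher in WT visWAT (171 ± 26.8 FPKM against 103 ± 30.4, log2 0.77, limma adjusted p = 0.00218), and Me1 the only one in MlklAdi-KO visWAT (92.6 ± 30.8 against 53.1 ± 12.7, log2 0.76, limma adjusted p = 0.0121, and 0.0566 without mouse 157). With the mouse as a block Me1 in WT (0.39, limma adjusted p = 0.0285) and Fasn in MlklAdi-KO mice (0.42, 0.0264) passed as higher in visWAT and Acaca in MlklAdi-KO mice (-0.50, 0.00625) as lower. On the TPM scale the median of all genes moved to 0.95 (log2) in WT and 0.91 in MlklAdi-KO mice on HFD, and to 0.52 and 0.88 on NCD. Of the called differences, Acaca (0.077) and Scd1 (0.47) in WT on HFD and Acacb (0.12) in MlklAdi-KO mice on NCD changed sign on that scale, and each stayed below the median of all genes. Calls were also lost on that scale for Acly on HFD (-0.0057 in WT, -0.29 in MlklAdi-KO mice), for Thrsp (-0.57) and Acacb (-0.016) in MlklAdi-KO mice on HFD and for Mlxipl in WT on NCD (-0.99). Called as higher in visWAT on that scale, but not in FPKM without a block, were Me1 in WT on HFD (1.49), Fasn (1.48) and Scd1 (2.09) in MlklAdi-KO mice on HFD, Srebf1 in WT on NCD (1.07), and Srebf1 (1.45) and Scd1 (1.35) in MlklAdi-KO mice on NCD, all above the median of all genes. Acly (0.84) and Me1 (0.75) in MlklAdi-KO mice on NCD passed there with a sign opposite to that in FPKM and lay below that median. RNA was extracted with another kit in each tissue, so tissue and extraction cannot be told apart.

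Across the 8 groups the order of levels followed these differences. Acaca ran from 74.2 FPKM (WT visWAT, NCD) to 5.45 (WT visWAT, HFD), a 13.6-fold span of group means that was 8.34-fold without mouse 182, with both NCD visWAT groups above all others and a gap in the ranges only between MlklAdi-KO visWAT on NCD and the liver groups. The WT visWAT group on NCD had the highest mean for 7 of the 10 genes (Acly, Me1, Acaca, Fasn, Elovl6, Scd1, Thrsp), and for 0 of them without mouse 182. Fasn had its only gap between MlklAdi-KO visWAT on NCD and liver, and none without mouse 182. Mlxipl kept all 4 liver groups above all 4 visWAT groups, and its neighbouring groups did not overlap between the lowest liver and the highest visWAT group and between the NCD and HFD visWAT groups. Srebf1, Scd1 and Thrsp had no gap between any neighbouring groups. Elovl6 was lower in every visWAT group but WT on NCD than in any liver group, with gaps above and below MlklAdi-KO visWAT on NCD. That exception rests on mouse 182. Without it WT visWAT on NCD had a mean of 12.3 FPKM, and all 4 visWAT groups lay below all 4 liver groups with a gap between them. Acly had 1 gap, above the HFD visWAT groups, and Acacb 1, between MlklAdi-KO visWAT on NCD and on HFD. Me1 had 2, between MlklAdi-KO visWAT on NCD and WT visWAT on HFD, and above MlklAdi-KO liver on HFD. All other neighbouring groups overlapped.

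Deletion of Mlkl in adipocytes changed none of the 10 genes past the threshold. In visWAT on NCD 0 of 10 were called (log2 from -1.31 to -0.05, limma adjusted p 0.916 to 0.966), where 0% of 14063 genes were called by limma and 528 had an unadjusted p under 0.05. In visWAT on HFD 0 of 10 were called (log2 -0.34 to 0.64, limma adjusted p 0.258 to 0.906), where 0.0215% of genes were called and 3003 had an unadjusted p under 0.05. In liver on NCD 0 of 10 were called (log2 -0.40 to 0.13), where 0.00758% of genes were called and 574 had an unadjusted p under 0.05. In liver on HFD 0 of 10 were called (log2 -1.02 to 0.38), where 0.197% of genes were called and 1664 had an unadjusted p under 0.05. The direction on NCD in visWAT rests on the library labelled WT NCD mouse 182, without which the 10 differences lay between -0.16 and 0.38. On recovered reads edgeR and DESeq2 called none of the 10 genes in any of the 4 comparisons either; over all genes in visWAT on NCD, edgeR called 0 (615 at an unadjusted p under 0.05) and DESeq2 8.

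The liver Me1 difference on HFD came nearest. MlklAdi-KO livers held 39.0 to 67.4 FPKM and WT livers 69.9 to 144, with no overlap and an exact two-sided permutation p of 0.00794, the smallest that 5 against 5 mice allow. Over all genes the log2 difference of -0.71 (95% interval -1.19 to -0.24) did not pass (limma adjusted p = 0.234). Liver Scd1 was 1648 ± 852 FPKM in MlklAdi-KO and 2891 ± 605 in WT mice (log2 -1.02, limma adjusted p = 0.361), with MlklAdi-KO mouse 151 at 431. In visWAT on HFD the widest differences were those of Scd1 (3089 ± 1322 FPKM in MlklAdi-KO and 1907 ± 560.2 in WT mice, log2 0.64 ± 0.32, limma adjusted p = 0.258) and Thrsp (229 ± 116 and 142 ± 36.0 FPKM, log2 0.54). The response to diet was not called different between the genotypes for any of the 10 genes in visWAT (log2 0.10 to 1.27), where 0% of genes were called by limma and 1867 had an unadjusted p under 0.05, or in liver (-0.62 to 0.42), where 0.0151% were. The sign in visWAT rests on mouse 182, without which the values ran from -0.56 (Acly) to 0.51 (Thrsp), 4 of them below 0, and Elovl6 went from 1.27 to 0.12.

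**Figure D4:**
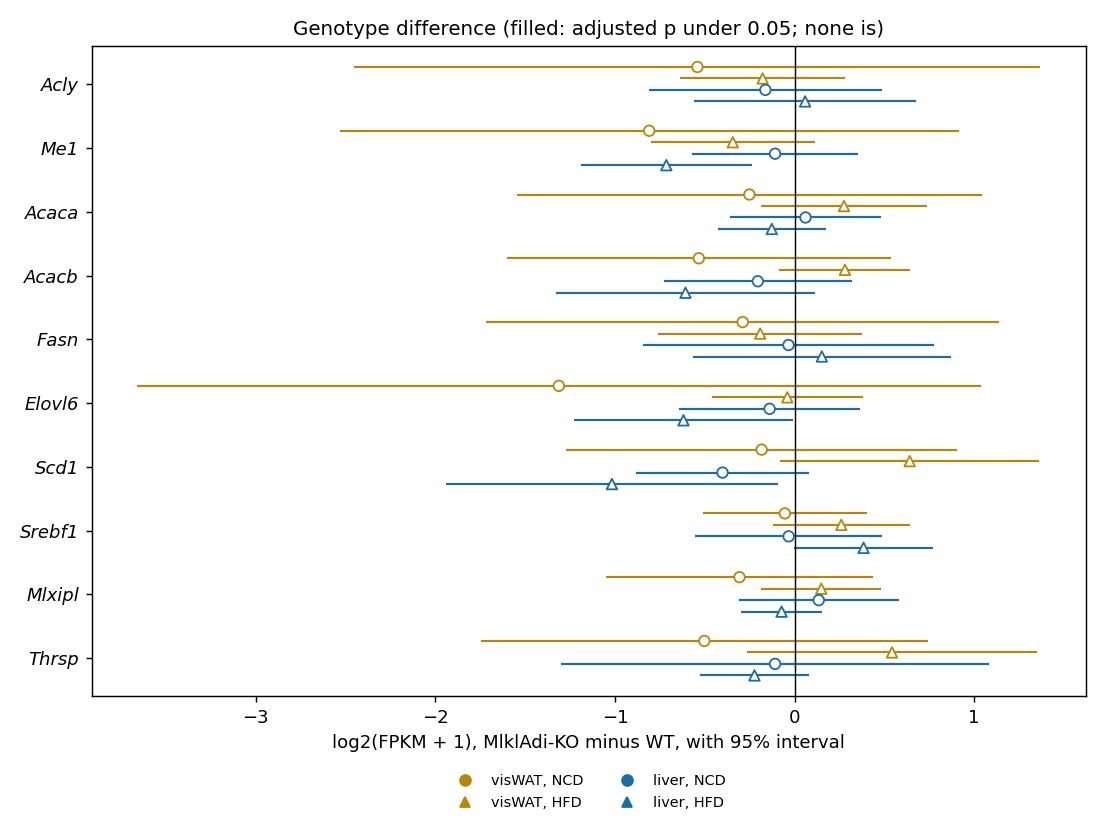
Log2 difference MlklAdi-KO minus WT on the log2(FPKM + 1) scale for each gene in visWAT and liver on each diet; points are limma estimates and bars their 95% intervals. The lowest estimate is that of Elovl6 in visWAT on NCD, at -1.31, a comparison that holds the mouse 182 library labelled WT NCD, and no gene passed the threshold of adjusted p 0.05 in any of the 4 comparisons.

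The MlklAdi-KO mice on HFD were not alike in visWAT. Adipocyte markers summed to 13164, 16994 and 16587 FPKM in mice 151, 156 and 157, against 7891 and 7319 in mice 152 and 153 and 6347 to 8405 in WT mice. The macrophage markers, with Lpl and Cd9 among them, summed to 1830, 1154 and 1245 FPKM in mice 151, 156 and 157, against 2636 and 2794 in mice 152 and 153. The lipogenesis genes did not follow these sums as one set. Scd1 was 2899, 4319.8 and 4581 FPKM in mice 151, 156 and 157, all above the highest WT mouse (2444), and Thrsp 251, 289 and 379, all above the highest WT mouse (193). Srebf1 was 46.8, 58.0 and 64.3 FPKM in these 3 mice, with the highest WT mouse at 45.5, and Acacb 10.4, 10.3 and 11.8, with the highest WT mouse at 9.11. In contrast, mice 151 and 156 had the lowest values of all 10 HFD mice for Acly (26.7 and 25.6 FPKM), Fasn (92.0 and 102), Me1 (61.6 and 63.7) and Elovl6 (1.35 and 1.24), while mouse 157 had the highest of the 10 for each of these 4 genes (58.0, 243, 135 and 3.49). The visWAT library of mouse 156 also held 1021 FPKM of summed hepatocyte markers, against 158 or less in the other HFD visWAT libraries. The mice are described here one by one and form no labelled group, and the part of these marker sums in the lipogenesis values was not tested.

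**Figure D5:**
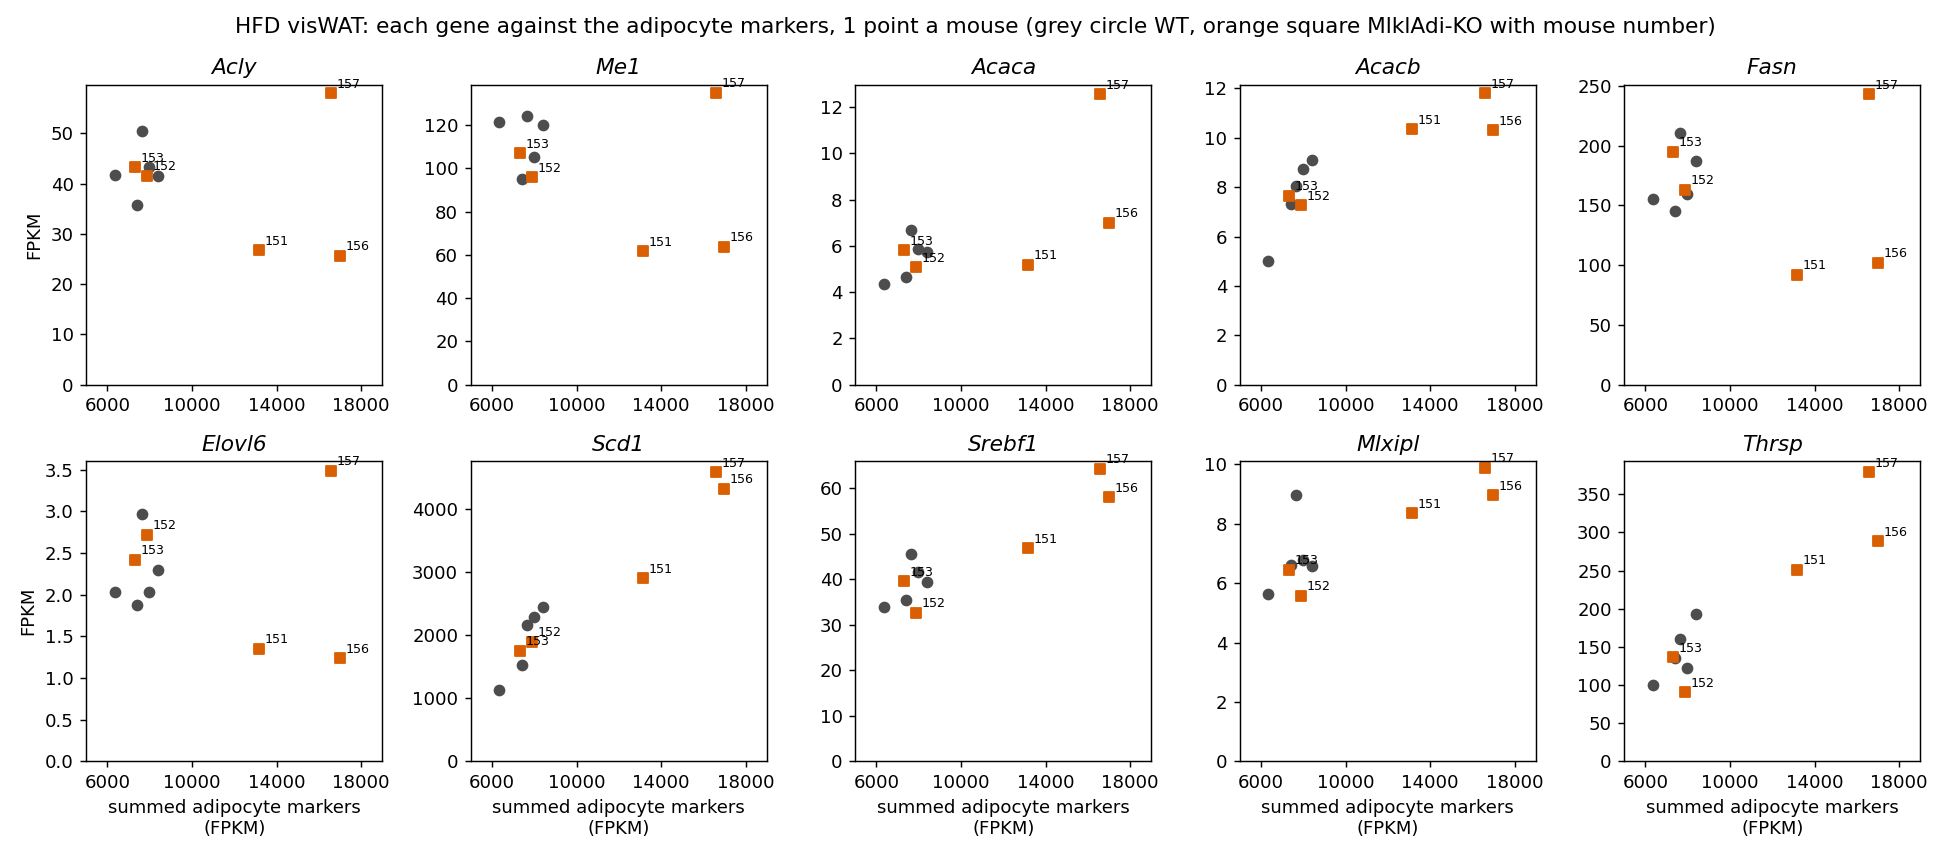
FPKM of the 10 genes in visWAT of each HFD mouse (vertical axes) against the summed FPKM of 12 adipocyte markers in the same library (horizontal axes, FPKM); each point is 1 mouse, grey circles WT and orange squares MlklAdi-KO with the mouse number. MlklAdi-KO mice 151, 156 and 157 have adipocyte sums of 13164 or more, and the same mice hold the 3 highest values of Scd1 and Thrsp, whereas Acly and Fasn are lowest in mice 151 and 156.

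The genes around the 10 were taken from 5 lists, and their counts stand beside the share of all genes called by diet, 37.8% in WT and 43.7% in MlklAdi-KO visWAT and 25.3% and 22.2% in liver. Of 14 genes that supply carbon and NADPH, 11 were tested in visWAT, and 5 fell and 0 rose in WT, led by Aacs (acetoacetyl-CoA synthetase, log2 -1.91), Tkt (transketolase; -1.83), Slc2a4 (the insulin-responsive glucose transporter; -1.80) and Acss2 (acetyl-CoA synthetase; -1.78). Without mouse 182 these 4 were -1.52, -1.22, -1.42 and -1.05, each called, and 5 fell and 2 rose, while without mice 182 and 183, 7 fell and 2 rose. In MlklAdi-KO visWAT 5 fell, led by Aacs (-1.31), and 2 rose. In liver all 14 were tested, and 6 rose and 5 fell in WT. Pklr, the pyruvate kinase of liver (79.3 ± 29.0 FPKM on NCD and 305 ± 29.0 on HFD, log2 2.01), and Aacs (1.35) rose there, and Acss2 (68.1 ± 14.3 and 15.6 ± 5.03 FPKM; -2.08) fell. In MlklAdi-KO liver 5 rose and 6 fell, with Pklr at 1.45, Acss2 at -1.78 and G6pdx, the first enzyme of the pentose phosphate pathway, at -1.80. Aacs thus fell in visWAT and rose in liver in both genotypes, the sign pattern of Srebf1 and Thrsp. Slc2a4, and Prkaa2 of the malonyl-CoA list below, did the same.

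Of 14 regulators outside the 10 genes, 3 rose and 2 fell in visWAT of both genotypes. Those that fell were Pparg (the adipocyte nuclear receptor; -0.81 in WT and -0.80 in MlklAdi-KO mice) and Rxra (its partner; -0.58 and -0.56). Those that rose in both genotypes were Usf1 (0.38 in WT), Usf2 (0.36 in WT) and Nr1h3 (0.34 in WT). In liver 1 rose and 4 fell in WT, and 1 rose and 3 fell in MlklAdi-KO mice. Insig1, which retains the SREBP precursor in the endoplasmic reticulum and is itself an SREBP target, fell from 233 ± 71.0 to 59.6 ± 11.1 FPKM in WT liver (-1.91) and by 1.42 on the log2 scale in MlklAdi-KO liver. Scap, the escort of SREBP, fell there as well (-0.78 and -0.55), while the Srebf1 transcript rose. Insig2 fell by 0.52 and 1.15 on the log2 scale.

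Of 11 known targets of SREBP-1c or ChREBP outside the 10 genes, 7 were tested in WT visWAT, of which 1 rose and 3 fell, and all 11 in liver, of which 4 rose and 3 fell in each genotype. Pnpla3 fell in both tissues, from 309 ± 97.8 to 79.3 ± 11.4 FPKM in WT visWAT (-1.91) and from 7.11 ± 4.79 to 0.917 ± 0.884 in WT liver (-2.02). Gpam, the first acyltransferase of triglyceride synthesis, fell by 1.52 in WT visWAT (by 1.27 without mouse 182) and by 0.82 in WT liver. Of 7 further desaturases and elongases, 4 were tested in liver, and 2 fell in WT and 3 in MlklAdi-KO mice. Elovl5 fell by 1.17 and 1.71. Elovl3 fell by 3.51 in MlklAdi-KO liver, while in WT liver its difference of -1.78 did not pass (limma adjusted p = 0.33), with 2.93 FPKM in NCD mouse 182 and 310 to 414 in the other 3 NCD mice, and it was -3.39 without that mouse (limma adjusted p = 1.23e-05). In visWAT Elovl1 rose (0.62 and 0.70). Of 10 genes that use or control malonyl-CoA, 9 were tested. In visWAT 1 rose and 4 fell in each genotype. In liver 2 rose and 0 fell in WT, and 5 rose and 1 fell in MlklAdi-KO mice. The 1 that rose in visWAT was Cpt1a, the carnitine palmitoyltransferase that malonyl-CoA inhibits (1.17 in WT, 0.71 in MlklAdi-KO mice), which rose in liver too (0.81 and 0.70). Prkaa1, Prkaa2 and Mcat fell in visWAT of both genotypes. Between the genotypes 0 genes of these 5 lists were called by limma in any of the 4 comparisons.

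The genes most like the 10 were sought per tissue by Pearson's r with the mean of the 10 standardised values over the 18 libraries. In visWAT, over 12057 genes, these were Pdha1 (r = 0.991) and Pdhb (0.984), subunits of pyruvate dehydrogenase, Gbe1 (0.988), the glycogen branching enzyme, Cnst (0.986) and Aacs (0.985). Without mouse 182 the same 5 genes had r of 0.974 to 0.984. The 10 genes themselves had r of 0.848 (Me1) to 0.980 (Acaca) with their own mean. In liver no gene was so close: over 11346 genes the highest were Tecpr2 (0.762), Ralgapa1 (0.739), Aagab (0.729), Cdk7 (0.725) and Pard6a (0.721). There the 10 genes did not share a pattern, with r from 0.807 (Fasn) and 0.801 (Acacb) down to 0.19 (Mlxipl), 0.09 (Thrsp) and 0.02 (Srebf1). The points share diet groups and libraries, so these values describe the samples and carry no p.

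Levels in visWAT and liver of the same mouse were compared within each diet, 20 relations in all, 10 mice on HFD and 8 on NCD. None passed after adjustment (lowest Benjamini-Hochberg adjusted permutation p 0.204 for Pearson's r and 0.378 for Spearman's rho). Fasn on HFD had r = 0.712 (permutation p = 0.0218) and rho = 0.673 (permutation p = 0.0404), and r was 0.552 without the 2 mice farthest from the median in visWAT. Scd1 on HFD had the opposite sign, with r = -0.53 (permutation p = 0.119) and rho = -0.709 (permutation p = 0.0266), and r = -0.541 without 2 mice. Mlxipl on NCD had r = -0.906 (exact permutation p = 0.0102) and rho = -0.619 (exact permutation p = 0.115), which rests on mouse 182 and 1 other, since r was -0.178 without the 2 mice farthest from the median.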

How the data were processed

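Polyadenylated RNA of visWAT (TRIzol by the labels, QIAzol by the study's methods) and liver (a column kit) was sequenced from the same mice. The authors trimmed reads with fastp, aligned them to mm39 with HISAT2 and counted reads per gene with featureCounts 1.5.0-p3; the annotation release, strandedness and treatment of multimapping reads are not given in the sources used here, so reads of overlapping genes cannot be told apart. The deposited gene table holds FPKM values of the 36 libraries, reads scaled to gene length and to a library size set by the authors, and these were used as deposited. The deposited comparison tables, which list some genes only, hold read counts, whose use was to find that library size. Relative to a library's own gene-assigned reads it stood at 1.01 to 1.40 for visWAT but 0.737 to 0.812 for liver. A further scaling between libraries, by a method not given in the sources used here, is thus part of each FPKM value, and tissue differences rest on it. Another 72 columns of per-sample values in those tables, the authors' group means, fold changes, p-values and pathway enrichments were not used.

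Groups came from the labels' tissue, genotype and diet. Each comparison was fitted with limma 3.58.1 (R 4.3.3; eBayes with trend) on log2(FPKM + 1), keeping genes whose mean FPKM reached 0.5, with Benjamini-Hochberg adjustment over all genes tested and a threshold of 0.05. Two-sided exact permutation tests per gene and permutation tests of correlations (exact for 8 mice, 100000 permutations for 10) used Python 3.11.15. Whole reads were recovered from FPKM, gene length and library size (100% of values in every library came out whole within 0.01), and edgeR 4.0.16 and DESeq2 1.42.0 were run on these counts as alternatives, beside another pseudocount (0.1), other filters, the TPM scale, each mouse left out, mice 182 and 183 left out together (for group orders, list genes and likeness mouse 182 was left out after its values were seen), a mouse block, and the spread from all 4 groups of a tissue. The fits were tested on simulated data drawn from the real libraries: for MlklAdi-KO visWAT by diet (13993 genes), 77 of 100 genes changed 2-fold and 96 of 99 changed 4-fold were recovered, with 12 false calls.

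Visceral fat and liver libraries with the same number came from the same mouse, by the labels, so the numbers pair the samples across tissues. The deviations of a mouse's fat and liver libraries from their group means correlated, over 14657 genes, at -0.05 to 0.22 (median 0.03; over 0.1 in 2 of 18 mice). Replicate libraries all differed beyond sampling noise. The members and lists were chosen with earlier results of these data known. Named were all 10 members, the genes of a pathway list called with the largest differences (up to 4 per list and comparison), the 5 genes most like the members in each tissue, and Mlkl; other values, such as Elovl3 in WT liver, were chosen after they were seen.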

Additional observations from a re-analysis of the deposited data

Results flagged for a closer look

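In 11 of 80 sets of values (10 genes in 8 groups of 4 or 5 mice), 1 mouse lay far from the rest by Dixon's test at the 95% level. The sets share mice and are not independent, so the 11 flags cannot be compared with a chance rate. Of the 11, 4 were visWAT values of the library labelled WT NCD mouse 182, whose Mlkl level lay inside the MlklAdi-KO range: Acly at 1407 FPKM (others 85.01 to 136), Me1 at 1436 (96.6 to 231), Fasn at 2839 (311 to 725) and Elovl6 at 286 (7.42 to 21.5). The liver library of the same mouse was low for Mlxipl, at 51.5 FPKM (others 88.9 to 95.1), and it also held the lowest Srebf1 (50.8) and Thrsp (60.6) of all 18 livers. Another 4 were values of MlklAdi-KO HFD mouse 157: liver Acly at 181 FPKM (others 69.2 to 99.97), liver Elovl6 at 80.8 (28.6 to 43.5), liver Mlxipl at 122 (90.01 to 98.8) and visWAT Acaca at 12.5 (5.08 to 7.003). The last were liver Me1 of WT HFD mouse 164, at 144 FPKM (69.9 to 82.0), and visWAT Acaca of MlklAdi-KO NCD mouse 166, at 59.5 (39.3 to 42.3).

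The change with diet differed between visWAT and liver, by a test of the difference itself (limma, log2, visWAT minus liver), for 5 genes in WT: Acaca by -2.92, Elovl6 by -3.78, Srebf1 by -2.21, Mlxipl by -2.13 and Thrsp by -4.28. In MlklAdi-KO mice it differed for the same 5 genes, by -2.20, -2.03, -2.31, -1.47 and -3.12, and for Me1 by 1.06. Without mouse 182 the WT values were -2.31, -2.64, -1.95, -1.61 and -3.21. By the same test with all mice, 40.0% of all genes were called in WT and 40.6% in MlklAdi-KO mice. That test did not pair the tissues by mouse. With the mouse as a block the calls with all mice stayed, and Acly (limma adjusted p = 0.0048) and Fasn (0.00206) were called too in MlklAdi-KO mice.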

How the results depend on the processing

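Of 1794 values recomputed under an alternative, 1651 kept their direction and side of the threshold, 68 lost it, 40 gained it and 35 changed sign. These leave out the genotype comparisons on NCD and diet by genotype, where none of the 10 genes was called and 54 of 800 further values changed sign, again with 0 called. Calls were lost with no filter (11 genes, among them Scd1 in visWAT by diet and Fasn and Thrsp between the tissues in WT on NCD), on the TPM scale (7, among them Acly and Srebf1 by diet in WT visWAT) and with the spread from all 4 groups (4: by diet Me1 and Elovl6 in MlklAdi-KO visWAT, Fasn and Elovl6 in WT liver). The cause was not tested. In no setting was any of the 10 genes called between genotypes. Over all genes, DESeq2 called 8 and 161 genes between genotypes in visWAT (NCD, HFD) and 21 and 262 in liver, against 0, 3, 1 and 26 by limma and 0, 3, 1 and 27 by edgeR, and 21 and 63 for diet by genotype in visWAT and liver, against 0 and 2 by limma and 0 and 1 by edgeR. limma on the TPM scale called 5 in visWAT on HFD, and 12 higher and 16 lower in liver on HFD, against 17 and 9. By diet in WT visWAT 3108 genes were called higher and 2239 lower, 3805 and 227 on the TPM scale and 2693 and 3169 by edgeR. Between the tissues on the TPM scale 5722 were higher and 2145 lower in visWAT in WT on NCD, against 4580 and 4947, and in WT on HFD 10525 and 2812, against 6101 and 6313. In MlklAdi-KO mice these were 10271 and 2421 on NCD, against 5394 and 5857, and 10107 and 2705 on HFD, against 5730 and 5938. For tissue by diet in WT they were 4017 and 576, against 3214 and 2687. Between the tissues in WT on NCD, 4 genes were called, 2 with no filter and 1 to 6 with a mouse left out.

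With the mouse as a replicate block 2 genes were called there, with Fasn (limma adjusted p = 0.0735) and Thrsp (0.109) lost. The block added Me1 in WT on HFD (0.0285), Srebf1 (0.0118) and Me1 (0.0233) in MlklAdi-KO mice on NCD, Acaca (0.00625) and Fasn (0.0264) on HFD, and, for the change with diet between the tissues in MlklAdi-KO mice, Acly (0.0048) and Fasn (0.00206), and it changed no other call.

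Of the 1794 values, these changed sign on the log2 scale. On the TPM scale: tissue difference in WT on NCD, Elovl6 0.047 and Acacb 0.056; in WT on HFD, Acaca 0.077 and Scd1 0.47; in MlklAdi-KO mice on NCD, Acly 0.84, Me1 0.75 and Acacb 0.12, and on HFD Acaca 0.47; tissue by diet in WT, Me1 0.44; genotype in HFD liver, Acly -0.0092. With edgeR and DESeq2: Elovl6 by genotype in HFD visWAT, 0.0070 and 0.0088, and between the tissues in WT on NCD, 1.12 and 1.11. Without mice 182 and 183: between the tissues in WT on NCD, Acly -0.38 and Me1 -0.27, and tissue by diet in WT, Me1 0.66. With 1 mouse left out, the tissue difference in WT on NCD ran from -0.73 to 0.69 for Acly, -0.61 to 0.97 for Me1, -0.34 to 0.53 for Scd1 and -1.70 to 0.051 for Elovl6, tissue by diet from -0.58 to 0.999 for Me1 in WT and -0.40 to 0.21 for Acacb in MlklAdi-KO mice, and genotype on HFD from -0.17 to 0.080 for Elovl6 in visWAT and, in liver, from -0.17 to 0.23 for Acly and -0.082 to 0.35 for Fasn.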
